A study of Mus musculus with 31 samples.

Results

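The livers compared here came from Ire1 knockout (Ire1 ko) mice and from wild-type (WT) mice that were all sampled 6 h after 2 mg/kg tunicamycin. Tunicamycin blocks the first step of N-glycan assembly, so glycoproteins fold poorly and the endoplasmic reticulum (ER) is stressed. All arrays whose titles name tunicamycin were used, 4 of Ire1 ko and 4 of WT, which makes 8 of the 31 arrays of the series. The labels give male mice of 14 weeks, liver, and biological replicates. The Ire1 ko mice are labelled as a mixed strain and the WT mice as c57BL/6, so strain and genotype cannot be told apart in these 8 arrays. The labels do not give the deleted part of the gene, a Cre driver or a vehicle group. The untreated mice set beside them, 4 WT and 3 Ire1 ko of the same age and sex, carry the same strain labels, although the untreated WT mice are also called littermates of the Ire1 ko mice. Xbp1 ko mice and their own WT littermates, untreated and also 14 weeks old, are set beside these groups in a later paragraph. The question the comparison of the 8 tunicamycin arrays addresses is which part of the liver's answer to ER stress depends on IRE1.

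Sensors in the ER membrane start the unfolded protein response. IRE1α, the product of Ern1, is both a kinase and an RNase. Its RNase removes a short intron from Xbp1 mRNA, so that the spliced mRNA encodes the active transcription factor XBP1, which drives genes of protein entry, folding, degradation and export. The same RNase can cut other mRNAs that are translated at the ER, a process called regulated IRE1-dependent decay. PERK, encoded by Eif2ak3, phosphorylates eIF2α and thereby favours translation of ATF4. ATF6 is cut in the Golgi and then enters the nucleus. The liver secretes most plasma proteins and depends on this machinery.

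Each value is the intensity of a gene's probe set on a linear scale after normalisation by the authors, and each difference is Ire1 ko against WT on the log2 scale with its standard error (SE). A step of 1 on that scale is a 2-fold difference. A gene was called when its adjusted p was under 0.05 in limma's test over all genes tested, and "rose" and "fell" are used of called genes. The lowest intensity was 3 and 66.2% of values were 6 or less, so folds of genes near that floor are compressed. Within a group of 4, arrays correlated with r between 0.9879 and 0.9934, and 0 pairs of arrays were identical. Levels of different genes are not compared, since probe sets differ in brightness. A gene with several probe sets is given by its brightest. The mean over all of a gene's probe sets, dim ones included, moved 25 called genes of the text by more than 1.5-fold, as Eif2ak3 from -2.91 to -1.01, and adding 16 to each intensity moved 38.

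The 2 genotypes differed widely. Of 15172 genes tested, 2759 were called (18.2%). In Ire1 ko 1469 genes were higher (9.68%) and 1290 were lower (8.5%). The falls were the deeper ones. A fold of at least 2 was reached by 483 lower and 213 higher genes, a fold of at least 4 by 118 lower and 18 higher genes, and a fold of at least 8 by 31 lower and 1 higher gene. The median over all genes tested was 0.015. Every count of called list members below is to be read against these background shares.

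**Figure D1:**
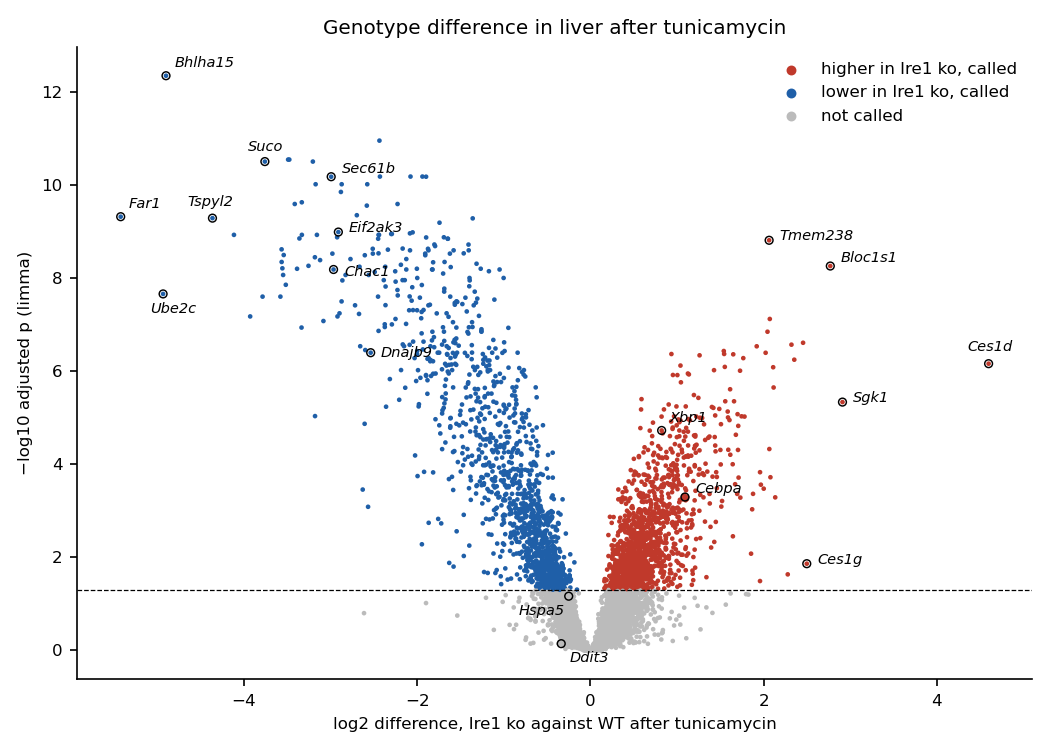
Each point is 1 of the 15172 genes tested after tunicamycin. The x axis is the log2 difference, Ire1 ko against WT, and the y axis is −log10 of limma's adjusted p. Called genes are coloured by direction, and named genes of the text carry their symbols. The left arm, genes lower in Ire1 ko, reaches further from 0 than the right arm, where Ces1d stands alone beyond 3.

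The sensors were examined first. The Ern1 probe set read 212, 304, 272 and 219 in the WT arrays and 393, 467, 270 and 360 in the Ire1 ko arrays. The groups overlapped in 1 Ire1 ko array, and the difference was 0.55 (SE 0.18; adjusted p = 0.0371). The call was lost in 10 of 18 alternative settings, among them those without WT replicate 1, 3 or 4 or Ire1 ko replicate 1, 2 or 4 (adjusted p from 0.0518 to 0.128). The deleted part of Ern1 is not given, so a probe set that may lie outside it does not check the labels. Xbp1 read 1047, 967, 884 and 823 in WT and 1696, 1642, 1491 and 1732 in Ire1 ko. All 4 Ire1 ko arrays lay above all 4 WT arrays, a difference of 0.82 (SE 0.10; adjusted p = 1.86e-05). These probe sets do not separate spliced from unspliced Xbp1 mRNA. Another 2 Xbp1 probe sets above the floor differed by 0.97 and 0.75 in the same direction.

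The mRNAs of the other arms were lower. Eif2ak3 read 102, 124, 116 and 148 in WT and 14, 17, 15 and 19 in Ire1 ko, a difference of -2.91 (SE 0.15; adjusted p = 1.01e-09). The Ire1 ko arrays after tunicamycin stood near the untreated means, which were 14.5 in WT and 10.3 in Ire1 ko. Tunicamycin thus raised Eif2ak3 mRNA 8.44-fold in WT and 1.57-fold in Ire1 ko, and the genotype by tunicamycin term, which tests that difference, was -2.43 (adjusted p = 3.89e-06). Atf6 fell from a mean of 367 ± 14.4 to 212 ± 6.16 (SD, n = 4 each), and Atf4 from 1460 ± 180 to 899.2 ± 40.2 (SD, n = 4 each). Of the other membrane-bound bZIP factors, Creb3l2 differed by -2.39, Atf6b by -1.50 and Creb3 by -1.22, each called. Mbtps1, the first of the proteases that cut ATF6, differed by 0.01 (95% interval -0.28 to 0.29) and was named after its value was seen. In all, 6 of 13 tested sensors and transducers fell and 2 rose.

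The reported targets of XBP1 fell in unequal measure. All 5 early reported targets that could be tested fell, with a median of -1.02. Dnajb9, a cochaperone that binds the chaperone BiP, read 1532, 1611, 1641 and 1472 in WT and 250, 273, 243 and 316 in Ire1 ko. No array of one group reached the range of the other, and the difference was -2.54 (SE 0.22; adjusted p = 3.96e-07). Edem1, a mannosidase-like protein that passes misfolded glycoproteins to degradation, fell by 1.34 on the log2 scale, Dnajc3 by 1.02, Dnajb11 by 0.69 and Pdia6 by 0.33. Without WT replicate 4 the call of Pdia6 was lost (adjusted p = 0.0588). All 5 were also lower in untreated Ire1 ko liver, where 0.863% of genes were called lower.

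Several well-known ER chaperones did not pass the threshold. Hspa5, which encodes BiP, read 4057, 3646, 3764 and 3776 in WT and 3347, 3262, 3333 and 2879 in Ire1 ko. The groups did not overlap, but the difference of -0.25 (95% interval -0.44 to -0.06) missed the threshold at an adjusted p of 0.0684, and a second Hspa5 probe set differed by 0.03. Hspa5 was called in 3 of 18 alternative settings. These were the fit of the 8 tunicamycin arrays alone (adjusted p = 0.0206), quantile normalisation (0.0297) and a filter on a group mean of 16 or more (0.0361). Hsp90b1, which encodes GRP94, differed by -0.05 (95% interval -0.30 to 0.20). Among chaperones named after their values were seen, Hyou1 differed by -0.43 (95% interval -0.79 to -0.06), Manf by -0.27 (95% interval -0.57 to 0.04) and the lectin Canx by 0.06 (95% interval -0.12 to 0.23). None of these passed the threshold. Tunicamycin raised Hspa5 3.99-fold in WT and 3.92-fold in Ire1 ko, both called.

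Other folding factors fell steeply. Of 23 tested ER chaperones and cochaperones 12 fell and 1 rose, with a median of -0.43. Fkbp11, a prolyl isomerase of secretory cells, read 491, 546, 486 and 471 in WT and 43, 31, 36 and 65 in Ire1 ko. The difference was -3.57 (SE 0.21; adjusted p = 4.43e-09), and the Ire1 ko arrays lay around the untreated WT mean of 49.5. Hspa13, an ER member of the heat shock protein family, fell from 440.8 ± 23.8 to 49.2 ± 7.63 (SD, n = 4 each). Dnajc10, which reduces disulfides for degradation, fell by 2.08 on the log2 scale and Creld2 by 1.19. The call of Creld2 was lost without WT replicate 1 or 2 or Ire1 ko replicate 1 or 2 (adjusted p from 0.0528 to 0.0647) and with no filter on low values (0.0534). In disulfide exchange 12 of 21 tested genes fell and 0 rose (median -0.326). Txndc5 read 1296, 1546, 1536 and 1349 in WT and 335, 298, 349 and 375 in Ire1 ko, a difference of -2.08 (SE 0.08; adjusted p = 6.45e-11). Its Ire1 ko values were close to the untreated Ire1 ko mean of 310 and below the untreated WT mean of 553.5. P4hb, the classical protein disulfide isomerase, fell by 1.41, Pdia5 by 1.90, Erp29 by 1.61 and the oxidase Ero1a by 1.37 on the log2 scale.

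Genes of protein entry into the ER had the lowest median among the 9 secretory lists. Of 20 tested genes of ER translocation 17 fell and 1 rose, with a median of -1.47 against 0.015 over all genes. Sec61b, a subunit of the translocation channel, read 847, 811, 887 and 772 in WT and 110, 85, 105 and 119 in Ire1 ko. All Ire1 ko arrays also lay below the untreated mean of either genotype (463.2 in WT and 155.3 in Ire1 ko). The difference was -2.99 (SE 0.12; adjusted p = 6.5e-11). Srprb, a subunit of the receptor that docks the ribosome, differed by -2.98, the translocon-associated Ssr1 by -2.44 and Ssr2 by -1.87, the channel's main subunit Sec61a1 by -2.05, and Sec11c of the signal peptidase by -1.95. The 1 called gene that was higher, Sec62 at 0.45, was named after its value was seen, and its call was lost without Ire1 ko replicate 2 (adjusted p = 0.0511), in the fit of the 8 tunicamycin arrays (0.0773) and with all probe sets averaged (1.0).

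**Figure D2:**
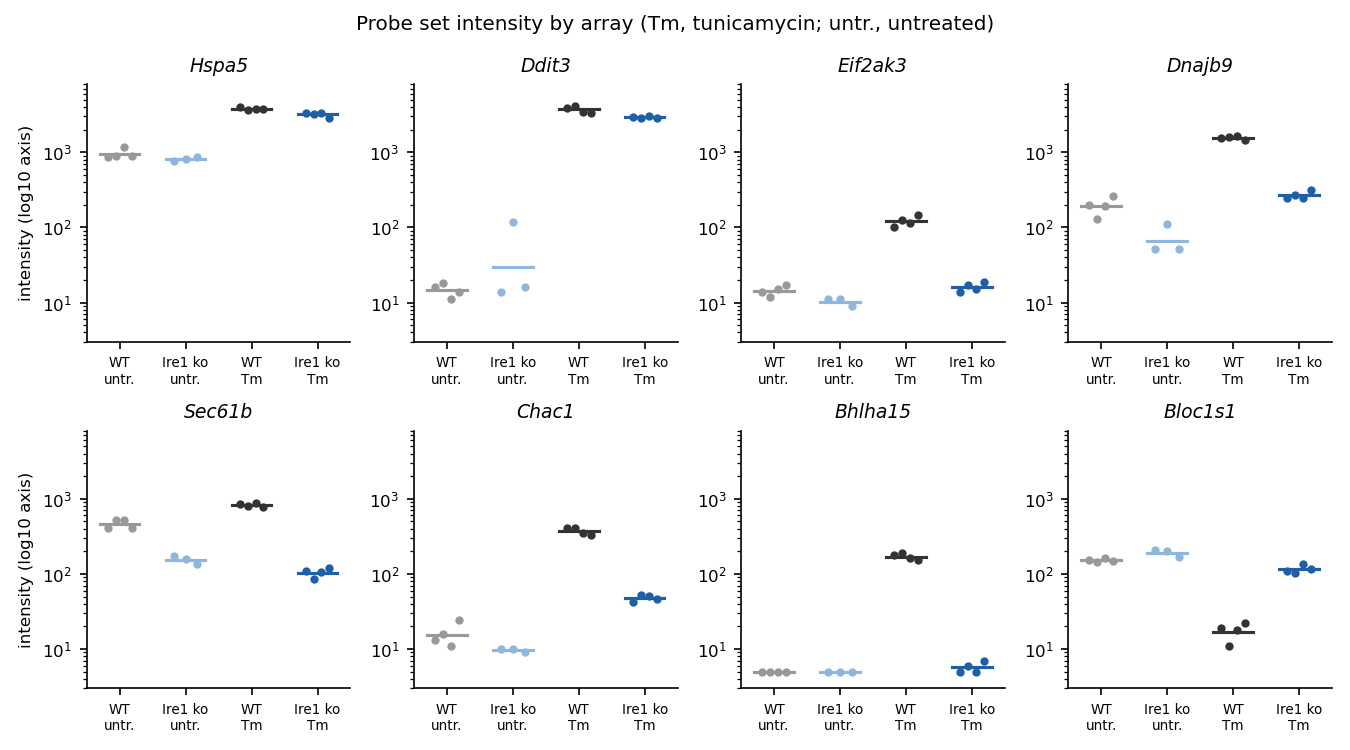
Each panel gives 1 gene, with intensity on a log10 axis and 1 point per array in 4 groups (untreated WT, 4 arrays, untreated Ire1 ko, 3 arrays, WT after tunicamycin, 4 arrays, Ire1 ko after tunicamycin, 4 arrays). Short bars are group means of the log2 values. Hspa5 and Ddit3 climb to similar heights in both genotypes, whereas Eif2ak3, Dnajb9, Sec61b, Chac1 and Bhlha15 climb less or stay low in Ire1 ko and Bloc1s1 drops in WT.

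Glycan transfer and the supply of its donor were lower too. In the oligosaccharyltransferase, which moves the glycan onto nascent chains, 10 of 12 tested subunits fell and 0 rose (median -0.995). Ostc fell by 2.23 on the log2 scale, the catalytic subunit Stt3a by 1.97, Ddost by 1.58, Rpn1 by 1.37, Dad1 by 1.29 and Tmem258 by 1.06. In dolichol-linked glycan assembly and sugar supply 15 of 28 tested genes fell and 3 rose (median -0.495). Pgm3, an enzyme of the hexosamine pathway that makes UDP-GlcNAc, read 201, 189, 189 and 170 in WT and 20, 13, 19 and 24 in Ire1 ko. The difference was -3.33 (SE 0.17; adjusted p = 1.16e-09). Gmppb and Gmppa, subunits of the enzyme that makes GDP-mannose, differed by -3.26 and -2.87. Dolpp1 and Dhdds, which act on dolichol phosphates and on dolichol synthesis, differed by -2.37 and -2.08.

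Dpagt1 encodes the enzyme that tunicamycin blocks. It read 144, 134, 139 and 166 in WT and 49, 43, 55 and 47 in Ire1 ko, without overlap. The difference was -1.59 (SE 0.14; adjusted p = 4e-07). Untreated liver held 73.8 ± 15.5 in WT and 38.7 ± 3.21 in Ire1 ko (SD, n = 4 and 3). The genotype by tunicamycin term of -0.68 missed the threshold (adjusted p = 0.0589).

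Most genes of the lectin cycle and of ER protein degradation fell. Of 13 tested genes of the lectin cycle 9 fell and 0 rose (median -0.81). Edem2 fell by 2.60 on the log2 scale, Edem3 by 1.83, the glucosidase Mogs by 1.56 and the folding sensor Uggt1 by 1.16. Of 22 tested degradation genes 13 fell and 3 rose (median -0.64). Syvn1, the ubiquitin ligase HRD1, read 1512, 1614, 1807 and 1324 in WT and 600, 615, 553 and 612 in Ire1 ko. Both groups stood well above their untreated means of 117.8 and 71, and the difference was -1.39 (SE 0.16; adjusted p = 6.84e-06). Selenok fell by 1.82, Ufd1 by 1.37, Selenos by 1.17 and Ube2g2 by 1.17. Herpud1, which joins the same ligase complex, differed by -0.27 (95% interval -0.56 to 0.03). The 3 that rose, Jkamp (0.69), Rnf139 (0.54) and Erlin1 (0.36), were named after their values were seen.

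Transport between the ER and the Golgi was lower almost throughout. In ER to Golgi transport 28 of 32 tested genes fell and 0 rose (median -1.12). Tmed3, a cargo receptor of the p24 family, read 577, 485, 554 and 540 in WT and 46, 44, 35 and 60 in Ire1 ko, a difference of -3.57 (SE 0.20; adjusted p = 2.37e-09). The COPII coat genes Sec23b and Sec24d differed by -2.58 and -2.30, its scaffold Sec16a by -1.94, and the SNAREs Stx5a and Bet1 by -2.43 and -2.25. In the COPI coat and retrieval list 16 of 17 tested genes fell and 0 rose, with a median of -1.26. Arfgap3, which lets coats come off by acting on ARF1, read 100, 141, 96 and 118 in WT and 6, 6, 7 and 7 in Ire1 ko, at the floor of the arrays. Its difference was -4.12 (SE 0.21; adjusted p = 1.16e-09). Kdelr3 and Kdelr2, receptors that return escaped chaperones, differed by -2.83 and -1.46, and the coat subunits Copg1 and Cope by -1.69 and -1.42.

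The 9 lists of entry, folding, glycosylation, degradation and transport were also pooled. They held 188 tested genes when each was counted once. Of these, 132 fell (70.2%) and 8 rose, with a median of -0.83. The response to tunicamycin within each genotype was set beside this. The drug raised 145 of the 188 in WT and 92 in Ire1 ko, and lowered 14 and 20. Over all genes tested, 18.5% were raised in WT and 17.4% in Ire1 ko, and 17.6% and 10.3% were lowered. The Ire1 ko response rests on 3 untreated arrays and that of WT on 4. The genotype by tunicamycin term, called for 7.53% of all genes, was called for 92 of the 188, with 88 negative and 4 positive.

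The gap between the responses was uneven among the lists. In the COPI list 15 of 17 genes rose in WT and 3 in Ire1 ko, and the term was called for 13. In ER to Golgi transport 27 of 32 rose in WT and 12 in Ire1 ko, with the term called for 21. In translocation 17 of 20 rose in WT and 6 in Ire1 ko, with the term called for 15. Among chaperones 20 of 23 rose in WT and 18 in Ire1 ko, and among degradation genes 16 of 22 and 15. The term was called for 7 of those 23 chaperones and 8 of those 22 degradation genes. A called term can have either sign, and for the chaperone genes Hyou1 (0.96) and Manf (0.89) it was positive. Over the 188 genes of the 9 lists, 88 called terms were negative and 4 positive.

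**Figure D3:**
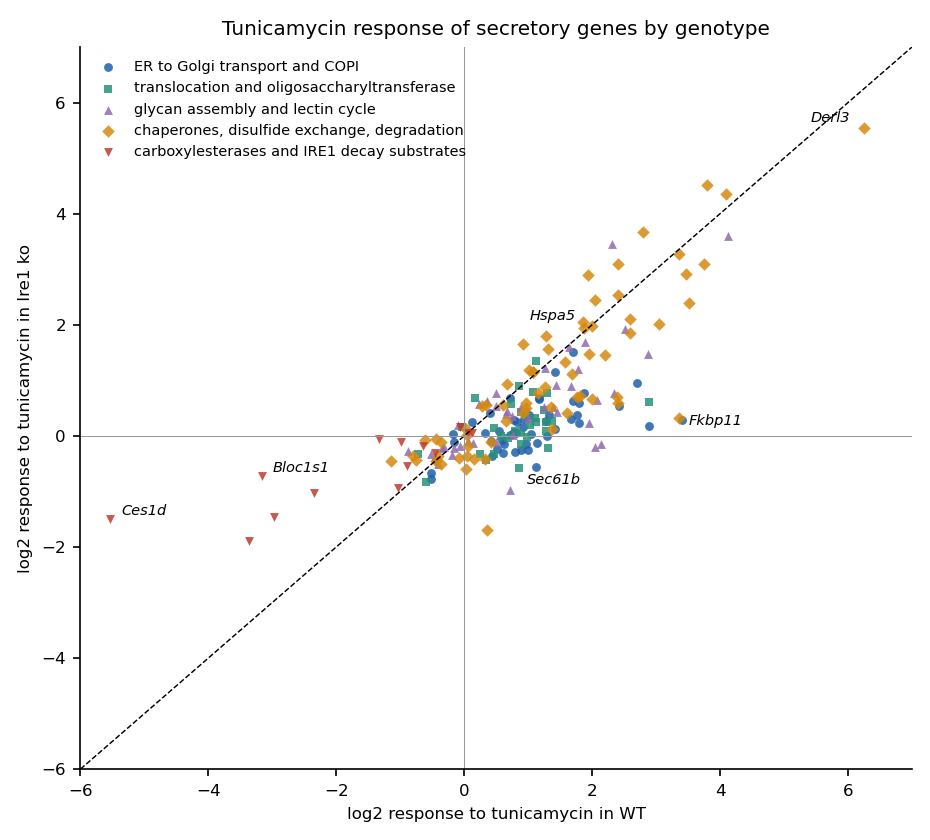
The log2 response to tunicamycin in Ire1 ko (y axis) is plotted against that in WT (x axis) for the tested members of 9 secretory lists, grouped into 4 colours, and for carboxylesterases and IRE1 decay substrates. The diagonal marks equal responses, and the axes rest on different mice. Transport and translocation genes with a WT response of about 1 lie near 0 in Ire1 ko, while many chaperone and degradation genes lie closer to the diagonal.

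Several of these genes carry an XBP1-type element in their promoters. The letters searched on both strands were the 8-base UPR element TGACGTGG, its 5-base core CCACG, which lies inside the reverse complement of the 8-base element, the spaced ER stress element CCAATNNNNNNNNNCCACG, and the amino acid response element TTGCATCA. Promoters were taken from RefSeq on mouse build GRCm38.p6 and ran from 250 bases before to 50 bases after the start. Of the 483 genes lower by at least 2-fold, 394 had a promoter in the table, with 512 promoters. Of the 213 higher genes 161 did, with 219 promoters. The 8-base element stood in 21 of the 512 promoters of lower genes (4.1%) and in 1 of the 219 of higher genes (0.457%), against 0.676% of all 32851 promoters and 0.928% of those of genes tested. The core stood in 61.3%, 46.1%, 32.8% and 42.3% of the same sets. The spaced element stood in 3 promoters of lower genes (0.586%), in 0 of higher genes and in 39 of all (0.119%), against 0.124% of those of genes tested. The amino acid response element stood in 2 promoters of lower genes (0.391%) and 1 of higher genes (0.457%). Its share was 0.895% of all promoters and 0.666% of those of genes tested. These are descriptions of letters and not measured binding sites.

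The 6 promoters below belong to the genes with the largest falls among those that hold the 8-base element before the start. They are shown because they put the element beside the measured falls of a Golgi retrieval receptor, a coat subunit and 2 disulfide exchange proteins. Each is a run of 100 bases on the gene's own strand, 5′ to 3′, with the element in capitals, which reads CCACGTCA where it lies on the opposite strand.
Isg20 (chr7:78913665-78913764, + strand): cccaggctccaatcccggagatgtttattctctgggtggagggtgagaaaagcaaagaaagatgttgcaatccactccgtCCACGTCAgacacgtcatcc
Ccdc149 (chr5:52471544-52471643, - strand): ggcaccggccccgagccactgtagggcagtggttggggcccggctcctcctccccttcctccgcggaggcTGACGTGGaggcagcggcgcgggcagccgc
Kdelr3 (chr15:79516308-79516407, + strand): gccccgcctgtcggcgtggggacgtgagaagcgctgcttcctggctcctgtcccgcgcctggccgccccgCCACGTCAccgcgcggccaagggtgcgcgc
Sec24d (chr3:123267396-123267495, + strand): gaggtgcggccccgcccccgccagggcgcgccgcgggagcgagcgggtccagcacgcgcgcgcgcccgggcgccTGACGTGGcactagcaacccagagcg
Txndc5 (chr13:38527999-38528098, - strand): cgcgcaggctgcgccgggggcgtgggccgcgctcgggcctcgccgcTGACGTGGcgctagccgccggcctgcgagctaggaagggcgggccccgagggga
Txndc11 (chr16:11134581-11134680, - strand): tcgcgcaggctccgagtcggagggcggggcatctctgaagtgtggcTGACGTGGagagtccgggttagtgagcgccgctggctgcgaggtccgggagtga
The element begins 20 bases before the start in Isg20, 30 in Ccdc149 and Kdelr3, 26 in Sec24d, 138 in Txndc5 and 102 in Txndc11. Kdelr3 read 55, 43, 31 and 26 in WT and 5, 5, 5 and 6 in Ire1 ko, at the floor. Isg20, an exonuclease first known as interferon-induced, read 228, 230, 103 and 120 in WT and 15, 12, 12 and 16 in Ire1 ko. The interferon list held 0 called genes in limma's test among 15 tested, and 2 of them had an unadjusted p under 0.05.

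The 15 genes with the deepest falls were each raised by tunicamycin in WT. The same WT arrays enter that rise and the choice of these genes, so the rise is not independent of the choice. In Ire1 ko some of the 15 read at the floor and others, such as Suco and Ube2c, above it. Far1, a fatty acyl-CoA reductase, read 520, 241, 189 and 181 in WT and 5, 6, 6 and 7 in Ire1 ko. The difference was -5.42 (SE 0.26; adjusted p = 4.71e-10), and the untreated means were 5.5 and 5. Its 1 probe set is of a kind that can match several transcripts. Ube2c, a ubiquitin-conjugating enzyme of mitosis, read 1067, 989, 438 and 728 in WT and 26, 11, 28 and 48 in Ire1 ko. Its difference was -4.93 (SE 0.34; adjusted p = 2.16e-08).

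Bhlha15, which encodes MIST1, a transcription factor of secretory cells, read 179, 190, 163 and 151 in WT and 5, 6, 5 and 7 in Ire1 ko. The WT arrays were far above the untreated mean of 5 in either genotype, and the Ire1 ko arrays were not. The difference was -4.90 (SE 0.12; adjusted p = 4.37e-13), and the genotype by tunicamycin term was also -4.90 (adjusted p = 1.74e-10). Its second probe set stayed at the floor in both groups. Suco, an ER membrane protein, read 535, 574, 538 and 518 in WT and 39, 33, 38 and 52 in Ire1 ko, a difference of -3.76 (SE 0.14; adjusted p = 3.07e-11). Ccdc134 went from 276.5 ± 15.9 to 25 ± 11.2 and Tspyl2 from 185.5 ± 17.6 to 9.5 ± 3.87 (SD, n = 4 each). Cks1b, a cyclin-dependent kinase subunit, differed by -3.93, and its second probe set by -3.90. The other genes among the 15 lowest were Armcx3 (-3.79), the uracil-DNA glycosylase Ung (-3.56), Ccdc149 (-3.54) and the mitotic spindle gene Nde1 (-3.52).

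The PERK, ATF4 and CHOP arm was mixed. Ddit3, which encodes CHOP, read 3946, 4138, 3458 and 3389 in WT and 2976, 2902, 3002 and 2896 in Ire1 ko. The groups did not overlap, yet the difference of -0.34 (95% interval -1.29 to 0.62) missed the threshold at an adjusted p of 0.718. The untreated arrays enter the gene's estimate of spread, and 1 untreated Ire1 ko array read 117 beside 14 and 16. In the fit of the 8 tunicamycin arrays alone Ddit3 was called (adjusted p = 0.0112). Atf3 differed by -0.32 (95% interval -0.72 to 0.08) and Trib3 by 0.48 (95% interval 0.06 to 0.91), neither called. Tunicamycin raised Ddit3 mRNA from untreated means of 14.8 and 49 in WT and Ire1 ko.

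Chac1, a glutathione-degrading enzyme downstream of ATF4, behaved otherwise. It read 407, 407, 350 and 330 in WT and 42, 52, 51 and 46 in Ire1 ko, a difference of -2.97 (SE 0.18; adjusted p = 6.43e-09). Nupr1 differed by -0.96, Ppp1r15a, which encodes the eIF2α phosphatase subunit GADD34, by -0.91, and the repressor Nfil3 by -1.12, all called. The call of Nupr1 was lost without WT replicate 1, 3 or 4 or Ire1 ko replicate 1 or 2 (adjusted p from 0.0601 to 0.101) and with no filter on low values (0.0627). Cebpb rose by 0.80. Of 18 tested genes of this group 4 fell and 2 rose. The hormone gene Fgf21 read 276, 225, 457 and 456 in WT and 94, 172, 284 and 290 in Ire1 ko, which overlapped, and its difference of -0.82 was not called (adjusted p = 0.074). It was called in 6 of 18 alternative settings, among them those without WT replicate 2 or Ire1 ko replicate 3 or 4 (adjusted p from 0.035 to 0.0419).

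Genes of amino acid supply, many of them ATF4 targets, were as mixed. Asns, asparagine synthetase, differed by 0.28 (95% interval -0.52 to 1.09). Aldh18a1, which makes the precursor of proline, read 61, 50, 27 and 56 in WT and 4, 4, 4 and 6 in Ire1 ko, a difference of -3.39 (SE 0.21; adjusted p = 6.2e-09). Psat1 of serine synthesis went from 234.2 ± 12.5 to 80.2 ± 11.9 (SD, n = 4 each). Gpt2, an alanine aminotransferase, rose by 0.95. Of 10 tested genes of serine, one-carbon and asparagine synthesis 3 fell and 1 rose.

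Among amino acid transporters the cationic carriers moved in opposite directions. Slc7a1 read 177, 178, 79 and 119 in WT and 28, 15, 35 and 29 in Ire1 ko, a difference of -2.36 (SE 0.26; adjusted p = 5.75e-06). Slc7a2, the liver's usual cationic carrier, read 233, 219, 272 and 229 in WT and 761, 1305, 546 and 740 in Ire1 ko, a difference of 1.75 (SE 0.20; adjusted p = 9.25e-06). For Slc7a2 the untreated means were 1056 in WT and 1206 in Ire1 ko, so tunicamycin had lowered it 4.42-fold in WT, while the 1.49-fold lower level in Ire1 ko was not called (adjusted p = 0.064). Of 17 tested cytosolic aminoacyl-tRNA synthetases 8 fell and 0 rose, with Qars at -1.35 and Wars at -1.20.

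Reported substrates of IRE1 cleavage were next examined. Of 10 genes on that list 9 could be tested and 3 were called, all of them higher in Ire1 ko. Bloc1s1, the best-known substrate across cell types and a subunit of a complex of lysosome biogenesis, read 19, 11, 18 and 22 in WT and 110, 103, 135 and 117 in Ire1 ko. No array overlapped, and the difference was 2.77 (SE 0.17; adjusted p = 5.42e-09). The 1 probe set of Bloc1s1 is, like that of Far1, of a kind that can match several transcripts. Tunicamycin had lowered Bloc1s1 8.91-fold in WT and 1.65-fold in Ire1 ko. Hgsnat, which encodes an acetyltransferase of lysosomes, read 43, 39, 62 and 69 in WT and 133, 106, 143 and 129 in Ire1 ko (difference 1.29, SE 0.20; adjusted p = 0.000156). Tapbp, which loads peptides onto MHC class I, differed by 0.60 (SE 0.12; adjusted p = 0.00143). The other 6 were not called, with Ergic3 at -0.10 (95% interval -0.49 to 0.29), Sparc at 0.15 (95% interval -0.12 to 0.43) and Col6a1 at 0.52 (95% interval -0.08 to 1.12), named after their values were seen.

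Carboxylesterases hydrolyse ester-containing lipids and drugs. The study chose the listed 5 on mice of this series, so their direction is not independent evidence. Ces1d read 19, 5, 22 and 28 in WT and 280, 284, 488 and 518 in Ire1 ko, the highest difference of all called genes at 4.60 (SE 0.42; adjusted p = 6.82e-07). The lowest Ire1 ko array (280) lay far above the highest WT array (28). Ces1f read 97, 58, 134 and 169 in WT and 302, 201, 361 and 393 in Ire1 ko (difference 1.52), Ces1c rose by 1.13, and Ces1e by 0.71. Ces1g read 5, 6, 8 and 9 in WT and 14, 61, 99 and 26 in Ire1 ko, a difference of 2.50 (SE 0.66; adjusted p = 0.0137) with a wide spread among the Ire1 ko arrays. The calls of Ces1e and Ces1g were lost without Ire1 ko replicate 3 (adjusted p = 0.104 and 0.0589), and that of Ces1e also without WT replicate 1 or 2 or Ire1 ko replicate 2 (adjusted p from 0.102 to 0.121). With 16 added to each intensity neither was called (0.0663 for Ces1e and 0.075 for Ces1g). Ces1e was also lost in the fit of the 8 tunicamycin arrays (0.0629), with all 31 arrays (0.0699), with no filter on low values (0.0606) and with the replicate number as a block (0.0576). All 5 were lowered by tunicamycin in WT, Ces1d 46.2-fold, and 3 of 5 in Ire1 ko, where Ces1d was lowered 2.82-fold.

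Xbp1 ko liver, measured untreated against its own WT littermates with 4 arrays each, gives the same genes in another setting, in which XBP1 is the lost factor and IRE1 is present. The difference there was -2.73 for Bloc1s1, -2.66 for Hgsnat, -1.25 for Tapbp, -2.89 for Ces1d, -2.46 for Ces1f and -4.16 for Ces1g, all called. Across 13745 genes tested in both comparisons, which share no arrays, 290 were called lower in Xbp1 ko (2.07% of the 14008 tested there). Of these 290, 89 rose in Ire1 ko after tunicamycin (30.7% of the 290 and 6.08% of the 1465 that rose), and 96 fell (33.1% of the 290 and 7.63% of the 1258 that fell). Over the 13745 genes 10.7% rose and 9.15% fell.

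**Figure D4:**
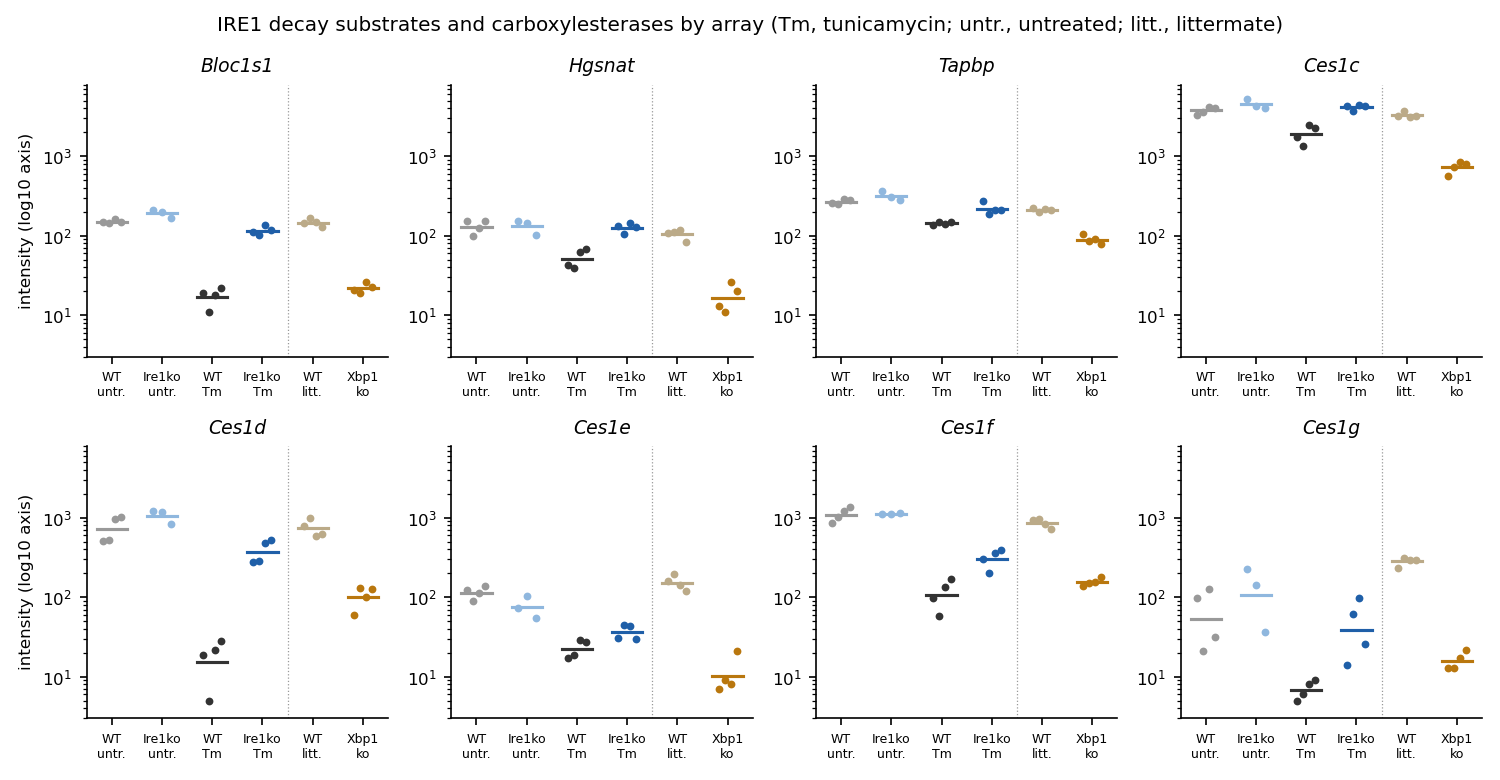
Intensity on a log10 axis, 1 point per array, for the 3 called decay substrates and the 5 carboxylesterases in 6 groups, the 4 of the Ire1 experiment and, at the right, untreated WT littermates and Xbp1 ko (4 arrays each). Short bars are means of log2 values. WT after tunicamycin and Xbp1 ko are the lowest groups in each panel, and Ire1 ko after tunicamycin lies above WT after tunicamycin throughout, by 0.60 for Tapbp to 4.60 for Ces1d on the log2 scale.

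Among the other genes highest in Ire1 ko, most had been lowered by tunicamycin in WT. Here too the same WT arrays enter the response and the choice of genes, so the lowering is not independent of the choice. Tmem238, a membrane protein, read 49, 48, 36 and 43 in WT and 179, 163, 215 and 177 in Ire1 ko (difference 2.06, SE 0.11; adjusted p = 1.51e-09). Its untreated means were 227 and 230.3, and in Xbp1 ko it differed by -3.66. Retreg3, a receptor of ER autophagy, read 4, 6, 6 and 6 in WT and 28, 30, 30 and 31 in Ire1 ko, and differed by -1.91 in Xbp1 ko. Depp1, at 3 to 4 in WT and 12 to 22 in Ire1 ko, the deubiquitinase gene Usp2 and the desmosomal gene Dsp differed by 2.11, 2.13 and 2.07. Mrpl49 and Clec2d differed by 2.11 and 2.07, and in Xbp1 ko by 0.35 and -0.27, neither of which was called.

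A smaller set rose above its untreated level in Ire1 ko. Sgk1, a kinase induced by glucocorticoids, read 61, 61, 95 and 49 in WT and 743, 911, 276 and 296 in Ire1 ko, against untreated means of 36.2 and 40.3. The difference was 2.91 (SE 0.32; adjusted p = 4.57e-06), and the Ire1 ko arrays spanned a 3.3-fold range. Id1, an inhibitor of basic helix-loop-helix factors, read 26, 34, 26 and 18 in WT and 166, 146, 95 and 112 in Ire1 ko (difference 2.32), against untreated means of 6 and 10. Igfbp1 read 291, 731, 628 and 685 in WT and 2177, 2576, 1673 and 2284 in Ire1 ko (difference 1.97, SE 0.32; adjusted p = 0.000273), against 176.8 and 380.7 untreated.

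Sterol and fatty acid genes divided. Of 21 tested genes of cholesterol synthesis and uptake 7 fell and 0 rose (median -0.37). Mvd, which makes isopentenyl diphosphate, read 334, 303, 304 and 306 in WT and 26, 29, 43 and 43 in Ire1 ko, a difference of -3.18 (SE 0.37; adjusted p = 9.15e-06). It was also low in untreated Ire1 ko, at a mean of 10 against 45.5 in WT, and the genotype by tunicamycin term was -1.14 (adjusted p = 0.27). Stard4 fell by 1.71 on the log2 scale, Lss by 1.45, Fdft1 by 1.18 and Insig1 by 0.90.

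In lipogenesis 7 of 22 tested genes rose and 2 fell. Fasn, fatty acid synthase, fell from 240 ± 35.7 to 81.8 ± 18.7 (SD, n = 4 each). The elongase Elovl6 rose by 1.43 and the desaturase Fads2 by 1.18. The call of Fads2 was lost without WT replicate 1 or 2 or Ire1 ko replicate 3 or 4 (adjusted p from 0.0536 to 0.0786) and in the fit of the 8 tunicamycin arrays (0.107). In fatty acid oxidation 12 of 19 tested genes rose and 1 fell, with a median of 0.33. Without Ire1 ko replicate 3, 7 of the 19 rose. Ppara, the main regulator of that pathway, rose by 0.81, Decr1 by 0.68 and Ehhadh by 0.60, the last a call lost without WT replicate 2 or 3 or Ire1 ko replicate 3 (adjusted p from 0.0536 to 0.0839), and Pdk4, which restrains glucose oxidation, fell by 1.02 on the log2 scale. For Ppara the means of 64.2 ± 13.7 in WT and 112.8 ± 24.8 in Ire1 ko (SD, n = 4 each) were both far below the untreated 456.5 and 410.

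**Figure D5:**
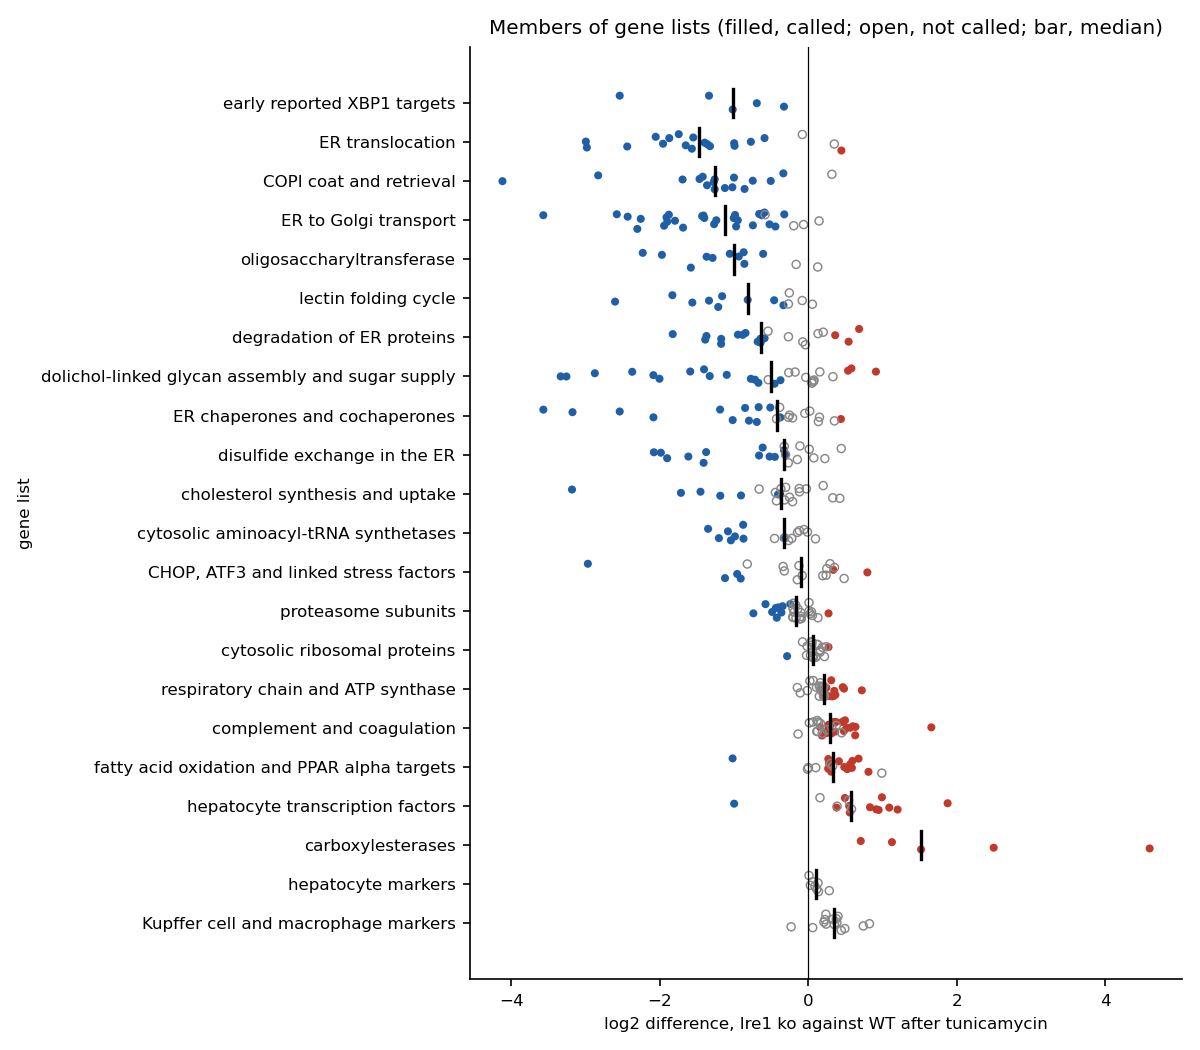
Log2 difference, Ire1 ko against WT after tunicamycin, for the tested members of 22 gene lists, 1 point per gene. Filled points were called (adjusted p under 0.05, limma) and open points were not, and the short bar is the median. Translocation, transport and COPI genes lie left of 0 almost throughout, complement, respiratory chain and fatty acid oxidation genes lie mostly a little to its right, and no marker of Kupffer cells is filled.

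Genes of secreted plasma proteins were higher in Ire1 ko by small steps. Of 36 tested genes of complement and coagulation 22 rose and 0 fell (median 0.29). The number that rose was 14 without WT replicate 1, 10 without WT replicate 2, 12 without Ire1 ko replicate 1 and 12 without Ire1 ko replicate 4. Hc, complement component C5, read 536, 353, 804 and 613 in WT and 1685, 1507, 1846 and 1973 in Ire1 ko. The difference was 1.66 (SE 0.18; adjusted p = 4.4e-06), against untreated means of 2382 and 2267. The coagulation factor F7 rose by 0.64 and Pros1 by 0.63. Alb differed by 0.13 (95% interval -0.01 to 0.27) and was not called. Of 23 tested carriers and acute phase proteins 6 rose and 0 fell, with Serpina6, the corticosteroid carrier, at 1.16.

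Hepatocyte transcription factors were higher as well. Of 16 tested 11 rose and 1 fell, with a median of 0.57. Cebpa read 124, 231, 235 and 278 in WT and 413, 394, 499 and 475 in Ire1 ko, a difference of 1.09 (SE 0.19; adjusted p = 0.000504). Both groups lay below the untreated means of 1098 and 808.3. The bile acid receptor Nr1h4 rose by 0.99, its target Nr0b2 by 1.88, Onecut2 by 1.20 and Foxa2 by 0.95, while Foxa1 fell 1.996-fold. Nr0b2 (5 to 8 in WT, 15 to 54 in Ire1 ko), Onecut2 (8 to 15, 22 to 30) and Foxa2 (6 to 10, 14 to 21) lay near the floor. Their lowest differences under the 18 alternative settings were 0.855, 0.614 and 0.403, and each kept its call. Of 21 tested cytochrome P450 genes 8 rose and 1 fell. The number that rose was 3 without WT replicate 2 or Ire1 ko replicate 3, 4 without WT replicate 1 or Ire1 ko replicate 2, and 5 without WT replicate 3 or 4. Cyp7a1, the rate-limiting enzyme of bile acid synthesis, read 45, 20, 290 and 266 in WT and 380, 372, 690 and 394 in Ire1 ko. The groups did not overlap, but the WT arrays spanned a 14.5-fold range, and the difference of 2.28 had an SE of 0.66 (adjusted p = 0.0232). It was 1.55 without WT replicate 2, and the call was lost without WT replicate 1 or 2 or Ire1 ko replicate 3 (adjusted p from 0.0741 to 0.0894), in the fit of the 8 tunicamycin arrays (0.111) and with no filter on low values (0.0574). Cyp8b1, the enzyme that sets the share of cholic acid, fell by 1.58, a call lost without WT replicate 4 or Ire1 ko replicate 1 or 4 (adjusted p from 0.0525 to 0.061).

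Circadian clock genes went both ways, and 5 of 15 tested rose and 2 fell. Dbp, a clock output gene, read 12, 38, 18 and 39 in WT and 112, 119, 92 and 83 in Ire1 ko (difference 2.08, SE 0.32; adjusted p = 0.000189). Hlf, another output gene, rose by 1.40, and the Period gene Per3 rose by 0.89. Per3 read 5 to 7 in WT and 10 to 13 in Ire1 ko, near the floor, and differed by 0.25 with all probe sets averaged. Arntl, which encodes BMAL1, read 86, 58, 117 and 88 in WT and 23, 31, 47 and 26 in Ire1 ko, a difference of -1.47 (SE 0.21; adjusted p = 0.000104). In untreated liver Arntl stood at 4.25 and 5, so it rose after tunicamycin by 4.32 on the log2 scale in WT and by 2.61 in Ire1 ko, and the genotype by tunicamycin term was -1.71. Per1 fell by 1.32. The gene Clock, named after its value was seen, read 32 to 38 in WT and 33 to 46 in Ire1 ko. Its difference of 0.12 was not called. The time of day of sampling is not in the labels, and whether untreated and treated mice were sampled at one time of day was not tested.

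Stress and death genes gave short lists. Cdkn1a, which encodes p21, differed by -0.22 (95% interval -0.56 to 0.12). Of 17 tested p53 targets 1 rose (Trp53inp1, 0.80) and 1 fell (Btg2, -0.98). The call of Btg2 was lost without WT replicate 1 or 2 or Ire1 ko replicate 3 (adjusted p from 0.0548 to 0.0699) and in the fit of the 8 tunicamycin arrays (0.0724). Of 14 tested genes of the BCL2 family and death receptors 2 rose and 0 fell. Bid read 23, 30, 22 and 29 in WT and 91, 67, 90 and 88 in Ire1 ko (difference 1.69, SE 0.29; adjusted p = 0.000431), and Bcl2l11, which encodes BIM, rose by 0.95. The call of Bcl2l11 was lost in 11 of 18 alternative settings, among them those without WT replicate 3 or 4 or any 1 Ire1 ko array (adjusted p from 0.0645 to 0.135). Gclc, of glutathione synthesis, rose by 1.05.

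Housekeeping lists shifted by less. Of 31 tested genes of the respiratory chain and ATP synthase 14 rose and 0 fell (median 0.21), with Ndufa9 at 0.72. Of 29 proteasome subunits 9 fell and 1 rose (median -0.17), with Psmd14 at -0.74. Of 22 ribosomal protein genes 1 rose and 1 fell, a share of 9.09% called against 18.2% of all genes.

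Markers of other cell types were checked, since these are whole livers in which fewer cells of a type and less RNA per cell cannot be told apart. The summed intensity of 8 hepatocyte markers ran from 38998 to 41096 in WT and from 42376 to 43999 in Ire1 ko. These sums did not overlap, and 0 of the 8 were called. The sum of 15 Kupffer cell and macrophage markers ran from 749 to 1002 in WT and from 1058 to 1526 in Ire1 ko, without overlap, and 0 of 15 were called. The largest of these differences was 0.82 for Cd5l, which was called in 4 of 18 alternative settings, and 2 of the 15 had an unadjusted p under 0.05. Stellate cell and fibroblast markers ran from 732 to 996 and from 907 to 1263, and endothelial markers from 734 to 873 and from 865 to 1149. Markers of cholangiocytes, lymphocytes and neutrophils lay at the floor, and no list of cell markers held a called gene in the fit reported here. Under the 18 alternative settings at least 1 endothelial marker was called higher in 13, with at most 2 in any setting. At least 1 Kupffer cell or macrophage marker was called higher in 4 of them, 1 lymphocyte marker in 3 and 1 hepatocyte marker in 1. An unadjusted p under 0.05 was reached by 1 of the 8 hepatocyte markers, 3 of 14 endothelial markers, 2 of 12 stellate cell and fibroblast markers and 2 of 10 lymphocyte markers, all of them higher in Ire1 ko. The part of the Kupffer cell markers in the genes that rose was not tested.

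The genotype difference after tunicamycin was set against that in untreated liver, which rests on 7 other arrays. There 143 genes were called, 12 higher and 131 lower. Of the 131 lower genes 106 fell after tunicamycin as well, which is 80.9% of those 131 and 8.22% of the 1290 genes that fell after the drug. Of the 12 higher genes 8 rose after tunicamycin too. The translocation list held 13 genes lower in untreated Ire1 ko, the oligosaccharyltransferase list 8 and the chaperone list 8, and the COPI list 1.

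The genotype by tunicamycin term was called for 1142 genes, 543 positive and 599 negative. The 8 most negative among genes of at least 16 in a tunicamycin group were Far1 (-5.27), Bhlha15 (-4.90), Ube2c (-4.74), Tspyl2 (-4.01), Suco (-3.87), Ccdc134 (-3.61), Nhsl1 (-3.60) and the channel adaptor Kctd7 (-3.49). The 8 most positive were Ces1d (4.04), Gm2788 (2.78), Sgk1 (2.75), Sorbs3 (2.45), Bloc1s1 (2.43), Clec2d (2.35), Phlda1 (2.30) and Retreg3 (2.25). For Phlda1 the untreated means were 456.8 in WT and 224 in Ire1 ko, a difference that was not called (adjusted p = 0.0921), and tunicamycin took both down, to 11 and 23.5.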

How the data were processed

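Liver RNA of 31 mice was measured on Affymetrix mouse arrays, and 15 arrays in 4 groups entered the fit. The authors deposited 1 linear intensity per probe set and array, rounded to whole numbers, made with RMA and the package affy per the submitters' processing notes. Probe sets were named through the platform annotation: of 45037, 28898 had 1 symbol, 551 had several and 15588 were not listed. For each of 17097 genes the brightest single-symbol probe set was used, by its mean on all 31 arrays. Genes above the 30th percentile of the array in at least 3 arrays were tested (15172). Log2 intensities were fitted with limma 3.58.1 in R 4.3.3 (lmFit, eBayes with an intensity trend), with Benjamini-Hochberg adjustment over all genes tested and a threshold of 0.05. The Xbp1 ko comparison was fitted on its own 8 arrays.

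The labels call the samples biological replicates, and the number of arrays limits the precision. The members and the gene lists were chosen with earlier results of these data known. Genes named were taken from a fixed set of 23, the 15 highest and 15 lowest called genes with a mean of at least 16 in a tunicamycin group and no overlap, up to 6 called members of each list (with up to 3 largest differences where fewer than 2 were called), the 8 largest terms of each sign, and the carboxylesterases. Not every list member so chosen is described, and others are said to be named after their values were seen. Data were also simulated for the same groups and array numbers, with no effect of tunicamycin. In each of 5 runs, 200 genes with a mean intensity of 16 or more were changed in the Ire1 ko tunicamycin arrays. Limma's test recovered 44% of those changed by 0.5 on the log2 scale, 89.7% by 1 and 98.7% by 2. Each run tested 10772 to 10835 genes, since the percentile of the filter was taken over genes and not over all probe sets, and 5.18% of the calls were false. The real fit tested 15172 genes and called 2759, so these rates describe the simulated setting only. Recovery of genes nearer the floor was not tested. Alternatives were other arrays in the fit, normalisation, scaling, filters, probe set averaging, an offset of 16, the variance model, the replicate number as a block, and leaving out each tunicamycin array.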

Additional observations from a re-analysis of the deposited data

Results flagged for a closer look

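In the groups of 4 arrays, single arrays were checked by their gap to the nearest array as a share of the group's range, on the log2 scale. Of 334 groups, 18 held an array whose share was at or above Dixon's critical value of 0.829, and chance alone gives about 1 in 20. Among the Ire1 ko arrays, replicate 4 stood high for Pdia5 (0.862), Dad1 (0.886), Sec23b (0.872), Kdelr3 (1.0) and Aldh18a1 (1.0) and low for Hspa5 (0.829). Ire1 ko replicate 2 stood low for Manf (0.867), Bid (0.891) and Psmd14 (0.883). Ire1 ko replicate 3 stood high for Cyp7a1 (0.907) and low for Kctd7 (1.0), and Ire1 ko replicate 1 stood low for Tmem258 (1.0). Among the WT arrays, replicate 1 stood low for Dhdds (0.869), Retreg3 (1.0) and Igfbp1 (0.835) and high for Mvd (0.899), and replicate 4 stood low for P4hb (0.868) and Depp1 (1.0). A share of 1.0 means that the other 3 arrays read the same, which happens where whole-number intensities are low.

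The response to tunicamycin differed between the genotypes, by limma's genotype by tunicamycin term with its adjusted p under 0.05, for 109 of the genes described above, with 73 negative and 36 positive terms on the log2 scale. A negative term means a lower response in Ire1 ko than in WT. In sensors, transducers and early XBP1 targets it was negative for Eif2ak3 (-2.43), Creb3l2 (-1.52), Atf6b (-1.31), Creb3 (-0.68) and Dnajc3 (-0.49). It was positive there for Xbp1 (1.12). In chaperones and disulfide exchange it was negative for Fkbp11 (-3.04), Hspa13 (-1.81), Dnajc10 (-1.69), Txndc5 (-1.24), P4hb (-0.46), Pdia5 (-2.05), Erp29 (-1.20) and Ero1a (-1.11). It was positive there for Hyou1 (0.96) and Manf (0.89). In translocation and the oligosaccharyltransferase it was negative for Sec61b (-1.42), Srprb (-2.28), Ssr1 (-1.53), Ssr2 (-1.18), Sec61a1 (-1.02), Ostc (-0.80), Stt3a (-1.11), Ddost (-0.52), Rpn1 (-0.78), Dad1 (-0.80) and Tmem258 (-1.03). In glycan supply and the lectin cycle it was negative for Pgm3 (-2.26), Gmppb (-1.41), Gmppa (-1.72), Dolpp1 (-2.29), Dhdds (-1.42), Edem2 (-1.69), Edem3 (-1.57) and Mogs (-0.78). In degradation of ER proteins it was negative for Selenok (-1.33), Ufd1 (-1.10), Selenos (-0.48), Ube2g2 (-0.74) and Herpud1 (-0.74). In ER to Golgi transport it was negative for Tmed3 (-1.76), Sec23b (-1.36), Sec24d (-1.21), Sec16a (-1.68), Stx5a (-1.88) and Bet1 (-1.30). In the COPI coat and retrieval it was negative for Arfgap3 (-3.11), Kdelr3 (-2.72), Kdelr2 (-1.28), Copg1 (-1.26) and Cope (-0.76). In CHOP, ATF4 and amino acid genes it was negative for Chac1 (-2.30), Aldh18a1 (-3.31), Psat1 (-1.97), Slc7a1 (-2.12), Qars (-1.07) and Wars (-1.12). It was positive there for Cebpb (0.81), Gpt2 (0.99) and Slc7a2 (1.57). In decay substrates and carboxylesterases it was positive for Bloc1s1 (2.43), Hgsnat (1.28), Ces1d (4.04), Ces1f (1.48), Ces1c (0.86) and Ces1e (1.33). In lipid and plasma protein genes it was negative for Stard4 (-1.25) and Pdk4 (-1.66). It was positive there for Ppara (0.96), Hc (1.74) and F7 (0.71). In hepatocyte transcription factors and the clock it was negative for Per1 (-1.33) and Arntl (-1.71). It was positive there for Cebpa (1.54), Nr1h4 (0.87), Nr0b2 (1.81), Onecut2 (1.68), Foxa2 (1.72), Dbp (2.10), Hlf (1.21) and Per3 (1.01). Outside these groups it was negative for Isg20 (-3.49), Ccdc149 (-3.39), Far1 (-5.27), Ube2c (-4.74), Bhlha15 (-4.90), Suco (-3.87), Ccdc134 (-3.61), Tspyl2 (-4.01), Cks1b (-2.58), Armcx3 (-3.14), Ung (-3.42), Nde1 (-3.30), Psmd14 (-0.64), Nhsl1 (-3.60) and Kctd7 (-3.49). It was positive for Tmem238 (2.04), Retreg3 (2.25), Mrpl49 (2.07), Clec2d (2.35), Depp1 (1.94), Usp2 (2.13), Dsp (1.53), Sgk1 (2.75), Id1 (1.58), Ndufa9 (0.55), Gm2788 (2.78), Sorbs3 (2.45) and Phlda1 (2.30).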

How the results depend on the processing

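The number of genes called after tunicamycin, 2759 as reported, was 2335 to 2530 when each tunicamycin array was left out in turn and 2594 to 3101 under the 10 other settings. The genotype by tunicamycin term was called for 1142 genes, for 939 to 1048 without 1 array and for 977 to 1414 under the other settings. Of the 167 genes described, 148 were called. Of these, 134 kept their call under all 18 settings, 14 lost it under at least 1, and 0 changed direction. Of the 19 not called, 8 were called under at least 1 setting. Apart from those given with the results, Hyou1 was called with all probe sets averaged (adjusted p = 0.0063), Manf and Herpud1 in the fit of the 8 tunicamycin arrays (0.0229 and 0.016), and Trib3 with 16 added (0.0165). The fit of the 8 tunicamycin arrays also lost calls: Ern1 (0.0771), Sec62 (0.0773), Ces1e (0.0629), Fads2 (0.107), Cyp7a1 (0.111) and Btg2 (0.0724). Phlda1 was lost with 16 added (0.102). Ern1 was also lost with no filter on low values (0.0646), with all probe sets averaged (0.0575) and with the replicate block (0.0588), and Bcl2l11 under these (0.0723, 0.0853 and 0.0703), with quantile normalisation (0.0512) and with 16 added (0.0954). Among 25 list counts of 5 or more, 5 moved by over 1.5 times under some setting. The replicate numbers of the labels were tested as a block, which gave 2646 called genes. Deviations of same-numbered arrays from their group means correlated at 0.163, 0.123, 0.088 and 0.199, and not every array correlated best with its own number. Correlations of arrays with different numbers ran from -0.337 to 0.361. So few arrays cannot decide whether the numbers mark a pairing. Signal limits low genes: intensities were whole numbers from 3 upwards, and 66.2% were 6 or less.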
